A study of Mus musculus with 48 samples.

Results

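Rpl22 and Rpl22l1 are a pair of paralogous genes for a protein of the large ribosomal subunit, and their RNA and ribosome footprints were followed in 24 clones of 8 genotypes. Both were taken by their gene symbols, as 2 of the 55487 genes in the deposited count table. In the RefSeq annotation of GRCm38.p6, Rpl22 (ENSMUSG00000028936) lies on the plus strand at chr4:152324436-152334082 and Rpl22l1 (ENSMUSG00000039221) on the plus strand at chr3:28805508-28807424. All were clones of Ba/F3, an interleukin 3-dependent mouse line of pro-B origin per the labels, and they were grown with serum and that cytokine. Beside WT there were clones lacking 1 allele of Rpl5, Rpl11 or Rpl22 (Rpl5+/-, Rpl11+/-, Rpl22+/-), clones lacking both alleles of Rpl22 (Rpl22-/-), clones with Rpl10 R98S, and clones with either Rps15 H137Y or Rps15 P131S, which are single amino acid changes. All mutants were made with CRISPR-Cas9, and the labels give each point mutation as present on both alleles, although the RNA titles of Rps15 P131S name it once. Each genotype had 3 numbered clones, and each clone gave 1 poly(A) RNA library and 1 footprint library from a divided lysate, after a short treatment with cycloheximide, which holds ribosomes on their messages. A footprint is the piece of a message shielded by a ribosome, so footprints count translating ribosomes. The clones of a genotype come from 1 cell line, and the site of each edit within Rpl22 is not given in the sources used here.

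Rpl22 binds ribosomal RNA at the outer surface of the large subunit, and cells can translate without it. Rpl22l1 can take its place in the ribosome, and in mouse tissues lacking Rpl22 the paralog has been described as more abundant, with Rpl22 binding a hairpin in the Rpl22l1 message. Loss of Rpl22 is known from T cell leukaemia and from carcinomas with microsatellite instability, and mice without it have a block in T cell development.

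The RNA of the pair did not move together in several genotypes described below. The sequences before the annotated starts are shown as description only, and whether they play a part in those differences was not tested. They are the 100 bases upstream of each start in RefSeq's GRCm38.p6 annotation, plus strand, at chr3:28805408-28805507 for Rpl22l1 and at chr4:152324336-152324435 and chr4:152325626-152325725 for the first and second start of Rpl22. Capitals mark the letters TATAAA.
Rpl22l1: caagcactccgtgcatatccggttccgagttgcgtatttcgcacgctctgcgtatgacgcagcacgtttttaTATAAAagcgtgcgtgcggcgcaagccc
Rpl22, first start: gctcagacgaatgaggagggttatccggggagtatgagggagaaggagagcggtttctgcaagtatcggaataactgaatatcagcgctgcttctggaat
Rpl22, second start: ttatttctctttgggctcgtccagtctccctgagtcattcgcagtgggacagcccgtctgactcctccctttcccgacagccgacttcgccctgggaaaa
In Rpl22l1 the motif begins 28 bases before the start. Searched on both strands of the 250 bases before a start, TATAAA was found for Rpl22l1 and for the first start of Rpl22 and not for the second. For the first start of Rpl22 it was found only on the opposite strand, outside the 100 bases shown. Of 32851 such RefSeq windows, 12.4% hold it at any place on either strand. That share is no background for its place in Rpl22l1.

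One clone did not resemble the others of its label in Rpl22, so results that rest on it are given with and without it. Footprints of Rpl22 in the Rpl22-/- clones were 274 CPM (read counts scaled to the library) in clone 649, 1544 in clone 30 and 317 in clone 776. The 3 Rpl22+/- clones had 1596, 1466 and 1429, so the library labelled Rpl22-/- clone 30 lay within their range while the other two lay far below it. Clone 30 did not stand apart from the other two over all genes: of 7718 genes with a mean of at least 10 CPM in these 3 footprint libraries, 113 differed by more than 1 log2 unit from the mean of the other two in clone 30, against 134 in clone 649 and 84 in clone 776. Rpl22 ranked 30 of the 7718 by the size of that difference in clone 30, at 2.39. Since the edited site is not given, whether counted reads lie across it is unknown, and the counts alone do not settle the label. What sets clone 30 apart was not tested.

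Depth and cell identity are given for all libraries together. Library totals were 13029073 to 38258559 counts in RNA and 15598994 to 72044439 in footprints, and no library had fewer than 6101 counts for either gene, so counting error was small beside the spread between clones. Of the interleukin 3 receptor chains, Csf2rb had 450 to 1720 CPM in RNA and Il3ra had 25.6 to 35.1. Of the markers of pro-B and B cells given here, Cd79b had 3.34 to 9.91 CPM, Cd79a reached 9.81 in the highest library, and Vpreb1, Igll1, Rag1, Dntt, Ebf1 and Pax5 had at most 0.301, so these defining markers of the labelled cell type were at or near 0. Of 3 erythroid markers, Gata1 had 37.6 to 69.5 CPM, Hba-a1 9.74 to 228 and Hbb-bt 0.284 to 53.0. Of 5 myeloid and mast cell markers, Cpa3 had 7.77 to 239 CPM, Mpo had a median of 1.27 (at most 15.5), Mcpt8 a median of 0.147 (at most 41.1), and Elane and Ms4a2 at most 0.201 and 0.193. Of 4 T cell markers, Cd3g reached 12.9 CPM with a median of 0.044, and Cd3e, Cd4 and Cd8a had at most 0.0594. The 5 myeloid markers summed to 17.2 to 46.3 CPM in WT, 68.6 to 89.9 in Rpl22+/- and 11.6 to 61.9 in Rpl22-/-. Over all libraries Cpa3 had the highest median of the 5, at 56.1 CPM. The median RNA change of the 3 tested against WT was -0.61 in Rpl22+/- and -0.29 in Rpl22-/-, so the sum does not stand for each marker. Of the markers tested in RNA (1 of T cells, 3 myeloid, 3 erythroid), none was called in either Rpl22 genotype in edgeR. There 3.9% and 5.27% of all genes were called, so a count of 0 among so few is near that background. The part of the myeloid markers in the results for Rpl22+/- was not tested. CPM values are relative to each library, and in a bulk lysate fewer expressing cells and less RNA per cell cannot be told apart.

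Rpl22 RNA was lower in both genotypes of Rpl22 loss, and the clones of these genotypes overlapped. It was 967, 933 and 944 CPM in the WT clones 3, 2 and 1, then 664, 712 and 672 CPM in the Rpl22+/- clones 13, 16 and 60. The Rpl22-/- clones had 509 CPM in clone 649, 727 in clone 30 and 662 in clone 776. All 6 clones with a lost allele were below all 3 WT clones, while the ranges of Rpl22+/- and Rpl22-/- overlapped. Against WT the log2 change was -0.47 (SE 0.10) in Rpl22+/- and -0.58 (SE 0.10) in Rpl22-/-, with adjusted p values of 0.0104 and 0.00164 in edgeR's quasi-likelihood test with Benjamini-Hochberg adjustment, where 3.9% and 5.27% of 12814 genes were called. Without clone 30 the homozygous change was -0.70 (adjusted p 0.00106 in edgeR, 2.66% of genes called). The call in Rpl22+/- was lost without WT clone 3 (-0.46, adjusted p 0.0501) and without Rpl22+/- clone 13 (-0.45, adjusted p 0.055), both in edgeR. Between Rpl22-/- and Rpl22+/- the difference was -0.11, with an approximate 95% interval of -0.32 to 0.09 and an edgeR adjusted p of 1, and it was 0.02 without clone 649. Rpl22-/- clones thus kept 53.6% to 76.7% of the mean WT level of Rpl22 message.

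Footprints separated the homozygous clones from the heterozygous ones, apart from clone 30. Footprints of Rpl22 were 2786, 2350 and 2517 CPM in WT, with a mean of 1497 ± 87.5 (SD, n = 3) in Rpl22+/-, which is 58.7% of the WT mean of 2551 ± 220 (SD, n = 3). Clones 649 and 776 had 10.7% and 12.4% of the WT mean, and clone 30 had 60.5%. The log2 change against WT was -0.77 (SE 0.41, adjusted p 0.421) in Rpl22+/- and -1.84 (SE 0.42, adjusted p 0.134) in Rpl22-/-, so neither passed edgeR's test, in which 0.253% and 0.105% of 16217 genes were called. The SE rests on the spread shared by all genotypes. Without clone 30 the SE was 0.14 in Rpl22+/- and 0.18 in Rpl22-/-, the changes were -0.77 (adjusted p 0.0307) and -3.11 (adjusted p 4.99e-09), and edgeR called 0.181% and 0.0468% of 17095 genes. In the same fit, Rpl22-/- differed from Rpl22+/- by -2.34 (SE 0.17, adjusted p 3.90e-07 in edgeR, 0.0117% of genes called), against -1.07 (SE 0.41, adjusted p 0.271, 0.00617% called) with clone 30. Clone 30 was left out because of these same footprints. The smaller SE and p values of Rpl22 without it follow from that choice, so they do not serve as tests. DESeq2 and limma voom called the footprint loss in Rpl22-/- with all 3 clones in, at -1.85 (adjusted p 0.00222, 0.9% of genes called) and -2.30 (adjusted p 0.0153, 0.234% called). Over all runs for Rpl22-/- against WT the adjusted p ranged from 4.99e-09 to 0.445.

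The ratio of footprint CPM to RNA CPM, a measure of ribosomes per message, was far lower in clones 649 and 776 than in any other clone. It was 2.88, 2.52 and 2.67 in WT, 2.40, 2.06 and 2.13 in Rpl22+/-, and 0.539, 2.12 and 0.479 in the Rpl22-/- clones 649, 30 and 776. Clones 649 and 776 thus had 20.1% and 17.8% of the mean WT ratio, and clone 30 had 79.0%. Tested as the interaction of assay and genotype with edgeR, the change in Rpl22-/- against WT was -1.27 (SE 0.43, adjusted p 0.765, 0.0121% of 16568 genes called), and blocking on clone gave -1.74 (adjusted p 0.0755, 0.0302% called). Without clone 30 it was -2.41 (SE 0.20, adjusted p 6.32e-10 in edgeR) and -2.11 (adjusted p 2.30e-08) against Rpl22+/-. In that fit Rpl22 was the only gene called against WT, 0.00579% of 17278. The ratio is built on the footprints for which clone 30 was left out, so these p values do not serve as tests either. The ratio in Rpl22+/- was below all WT clones in all 3 clones, but its change of -0.30 (SE 0.43, interval -1.14 to 0.53, adjusted p 1.00 in edgeR, 0.00604% called) did not pass, with or without clone 30 (adjusted p 0.769 without). Its mean was 81.7% of WT, which is not particular to this genotype. All clones were also below WT in Rpl5+/- (mean 71.9% of WT), Rpl11+/- (79.1%), Rpl10 R98S (79.2%) and Rps15 P131S (82.8%). Rps15 H137Y overlapped WT (97.1%).

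**Figure D1:**
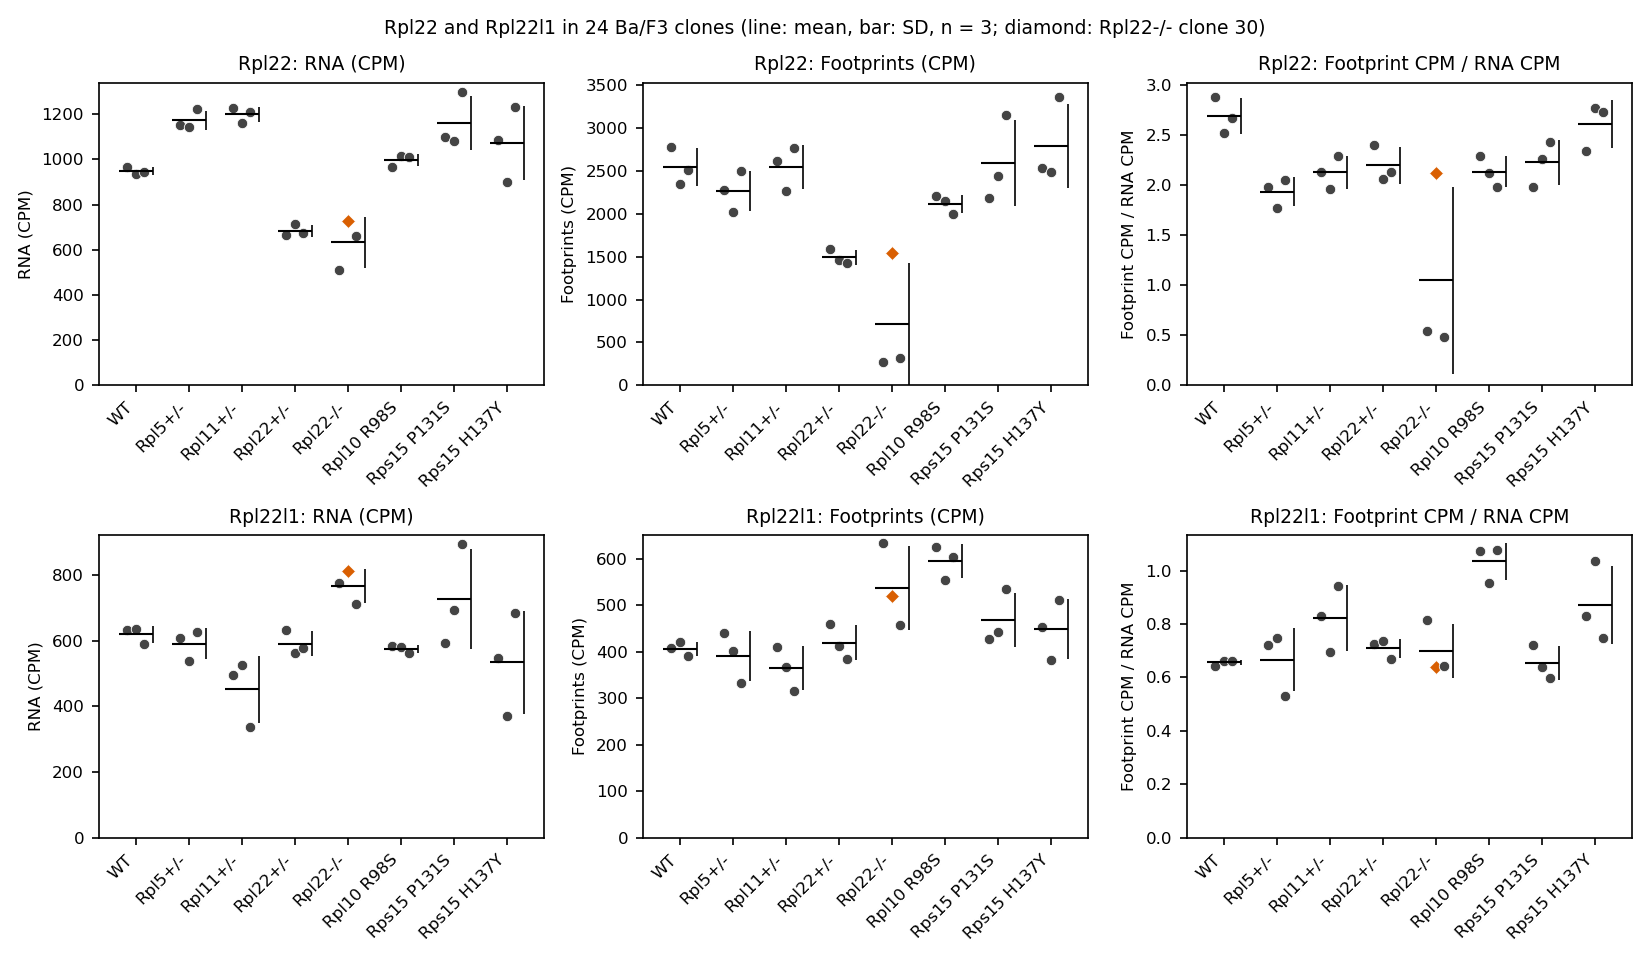
Level of Rpl22 (upper row) and Rpl22l1 (lower row) in each of the 24 clones, in CPM of RNA, CPM of footprints and the ratio of footprint CPM to RNA CPM. Each point is a clone, lines are means, bars are SD over 3 clones, and the diamond is Rpl22-/- clone 30, whose Rpl22 footprints (1544 CPM) lie with Rpl22+/- (1429 to 1596 CPM) and not with the other Rpl22-/- clones (274 and 317 CPM).

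The plot of levels by clone shows the paralog on its own scale, where several genotypes spread widely. Rpl22l1 RNA was 634, 635 and 591 CPM in WT and 634, 562 and 577 in Rpl22+/-, so these groups overlapped. In the Rpl22-/- clones 649, 30 and 776 it was 778, 813 and 713 CPM, and each of these was above every WT and every Rpl22+/- clone. An exact permutation test of 3 clones against 3 cannot go below a p of 0.1. The share of all genes whose clones separate in this way was not counted. The means were 620 ± 25.2 in WT and 768 ± 50.8 in Rpl22-/- (SD, n = 3), or 124% of WT. The log2 change was 0.31 (SE 0.18, interval -0.04 to 0.66), which did not pass edgeR's test with all 24 libraries in the fit (adjusted p 0.4). Fitted on the WT and Rpl22-/- libraries alone it was 0.30 (SE 0.06, adjusted p 0.00866 in edgeR), with 12% of 11928 genes called. Rpl22l1 spread more between clones of Rpl11+/-, Rps15 P131S and Rps15 H137Y (SD of log2 CPM 0.35, 0.30 and 0.45) than in WT and Rpl22-/- (0.06 and 0.10), and those libraries enter the shared estimate only in the first of these fits. Over all runs of this comparison the adjusted p ranged from 0.00866 to 0.687. Against Rpl22+/- the difference was 0.38 (SE 0.18, interval 0.02 to 0.73, adjusted p 1 in edgeR, where 0.0078% of genes were called).

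Footprints of Rpl22l1 were likewise highest in Rpl22-/- among these 3 genotypes. They were 408, 421 and 391 CPM in WT, 460, 413 and 385 in Rpl22+/-, and 635, 520 and 458 in the Rpl22-/- clones 649, 30 and 776. All Rpl22-/- clones were above WT, and the lowest of them lay just below the highest Rpl22+/- clone. The log2 change against WT was 0.04 (interval -0.23 to 0.31, adjusted p 0.923) in Rpl22+/- and 0.40 (SE 0.14, interval 0.13 to 0.67, adjusted p 0.479) in Rpl22-/-, and neither passed edgeR's test. The latter was 0.43 without clone 30 and 0.26 without clone 649, the clone with the most Rpl22l1 footprints. The ratio of footprints to RNA for Rpl22l1 was 0.644 to 0.663 in WT and 0.640 to 0.817 in Rpl22-/-, with a log2 change of 0.10 (interval -0.35 to 0.55). The changes of the paralog in RNA and footprints, 0.31 and 0.40, did not pass with all libraries in the fit. Clone 30, at the heterozygous level for Rpl22 footprints, had the highest Rpl22l1 RNA of all 9 clones.

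Ordered by the number of intact Rpl22 alleles in the labels (2 in WT, 1 and 0), the members had slopes of opposite sign over 9 clones. Rpl22 changed by 0.30 log2 units per allele in RNA (Pearson r 0.85, Spearman rho 0.79), by 1.16 in footprints (r 0.81, rho 0.84) and by 0.86 in the ratio (r 0.74, rho 0.90). Exact permutation tests of r, two-sided, gave p values adjusted over 6 relations of 0.0167, 0.0107 and 0.0107 (raw 0.00833, 0.00357 and 0.00238), and those of rho gave 0.0429, 0.0286 and 0.0214. Rpl22l1 changed by -0.15 per allele in RNA (r -0.71, rho -0.58, exact adjusted p 0.0514 and 0.153) and by -0.20 in footprints (r -0.73, rho -0.69, exact adjusted p 0.0304 and 0.0911). Its ratio had r -0.31 and rho 0 (exact adjusted p 0.454 and 1). In Rpl22+/- the mean of Rpl22l1 was 95.4% of WT in RNA and 103% in footprints, against 124% and 132% in Rpl22-/-. The slopes of Rpl22l1 thus rest mostly on Rpl22-/- and do not show a step with each allele. Those of Rpl22 do not stand for equal steps either. Its RNA changed by -0.47 in Rpl22+/- against WT and by -0.11 in Rpl22-/- against Rpl22+/-. Its ratio changed by -0.30 and -0.96 in the same comparisons, with clone 30 included. The alleles take 3 values with 3 clones each, so the clones farthest on that axis are whole groups, and clone 30 was left out instead. Rpl22 then had r of 0.93, 0.95 and 0.89, and the footprint relation of Rpl22l1 no longer passed (r -0.69, exact adjusted p 0.0509). Clone 30 was chosen after its Rpl22 footprints were seen and had the highest Rpl22 RNA and ratio of the Rpl22-/- clones. The higher r of Rpl22 without it follow from that choice and do not serve as tests.

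How the pair divided its counts does not depend on the size of the library. Rpl22l1 made up 39.6%, 40.5% and 38.5% of the RNA counts of the pair in WT, 48.9%, 44.1% and 46.2% in Rpl22+/-, and 60.5%, 52.8% and 51.9% in the Rpl22-/- clones 649, 30 and 776. In footprints the share was 12.8%, 15.2% and 13.4% in WT, 22.4%, 22.0% and 21.2% in Rpl22+/-, and 69.9%, 25.2% and 59.1% in Rpl22-/-. The share was thus higher with each lost allele at both levels, without overlap of groups, and clone 30 had the lowest of the homozygous shares in footprints. Since Rpl22 is the edited gene, a loss of Rpl22 alone raises the share. In Rpl22+/- the mean of Rpl22l1 itself was 95.4% of WT in RNA and 103% in footprints, and in Rpl22-/- it was 124% and 132%. The mean differences of the share from WT were 6.85 and 15.5 percentage points in RNA and 8.05 and 37.6 in footprints, each with an exact two-sided permutation p of 0.1, the smallest that 3 clones against 3 allow, and 0.145 after adjustment over 16 comparisons. These shares weigh the genes by counts and not per length, so they do not give the ratio of the molecules.

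The sum of both genes lay further below WT in footprints than in RNA; this difference was not tested. In RNA the sum of CPM was 79.7% to 82.8% of the WT mean in Rpl22+/- and 82.0%, 98.2% and 87.6% in the Rpl22-/- clones 649, 30 and 776. In footprints it was 61.4% to 69.5% in Rpl22+/- and 30.7%, 69.8% and 26.2% in those 3 clones. Relative to the WT mean, clone 649 had 2277 CPM fewer footprints of Rpl22 and 229 CPM more of Rpl22l1, so the gain was 10.0% of the loss, and in clone 776 it was 2.31%.

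**Figure D2:**
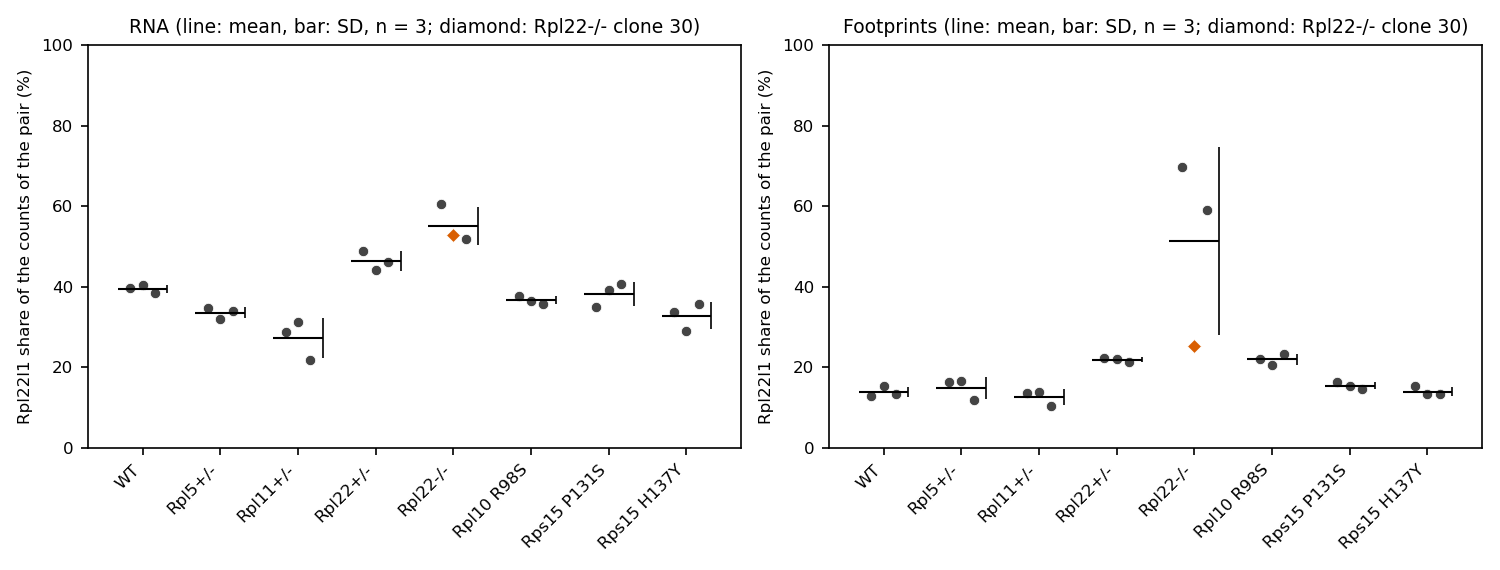
Share of Rpl22l1 in the counts of the pair (percent), in RNA on the left and footprints on the right, 1 point per clone with the mean and SD over 3 clones. Rpl22-/- lies highest at both levels, and its clone 30 (diamond, 25.2% in footprints) lies apart from clones 649 (69.9%) and 776 (59.1%).

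In the plot of shares Rpl10 R98S stands at the level of Rpl22+/- in footprints but not in RNA. Rpl10 is a large subunit protein near the catalytic centre, and R98S is a mutation known from T cell leukaemia. Footprints of Rpl22l1 were 626, 555 and 605 CPM in the Rpl10 R98S clones A30, A29 and A34, all above the WT range of 391 to 421, while its RNA was 584, 580 and 562 CPM, all below the WT range of 591 to 635 (change -0.11, SE 0.18, not called in edgeR, where 12.9% of genes were). The footprint change was 0.55 (SE 0.14, interval 0.28 to 0.82) with an adjusted p of 0.047 in edgeR, where 1.62% of genes were called. That call is close to the threshold: it was lost in all 6 runs that left out a WT or Rpl10 R98S clone (adjusted p 0.0958 to 0.222), without Rpl22-/- clone 30 (0.0671, with 1.23% of genes called) and when scaled to the other ribosomal protein genes (0.36, adjusted p 0.182), and the change stayed between 0.36 and 0.59 in every run. DESeq2 made it too (adjusted p 0.00578, 4.49% of genes called). The ratio of footprints to RNA was 1.07, 0.955 and 1.08 against 0.644 to 0.663 in WT, or 158% of the WT mean. Its change of 0.64 (SE 0.23, interval 0.19 to 1.09) had an edgeR adjusted p of 0.330 without a clone term, where 0.217% of genes passed. Blocking on clone gave an adjusted p of 0.0397 (SE 0.14, 0.471% called). Rpl22 RNA was 965, 1013 and 1011 CPM in these clones, overlapping WT (change 0.07, SE 0.10). Rpl22 footprints were 2208, 2151 and 2000 CPM, all below the lowest WT clone at 2350, but the change of -0.27 did not pass (SE 0.41, and without Rpl22-/- clone 30 SE 0.14 and adjusted p 0.451).

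Rpl5 and Rpl11 are large subunit proteins that, with 5S ribosomal RNA, bind the p53 regulator Mdm2. In Rpl5+/- the Rpl22 RNA was 1151, 1144 and 1221 CPM in clones 80, 76 and 68, and in Rpl11+/- it was 1226, 1160 and 1209 CPM in clones 406, 414 and 22. All 6 values were above the WT range of 933 to 967 CPM. The changes were 0.31 (SE 0.10, adjusted p 0.154, with 1.04% of genes called) and 0.34 (SE 0.10, adjusted p 0.0386, with 11.8% called) in edgeR, and the second call was lost when WT clone 1, 2 or 3 or Rpl11+/- clone 406 or 22 was left out, at changes of 0.32 to 0.35. Footprints of Rpl22 were 2277, 2026 and 2501 CPM in Rpl5+/- and 2612, 2272 and 2770 in Rpl11+/-, overlapping WT, where 0.0123% and 0.074% of genes were called. The ratio was 71.9% and 79.1% of the WT mean, with all 6 clones below WT. Its changes of -0.48 and -0.34 (SE 0.43 each, intervals -1.32 to 0.35 and -1.18 to 0.49) did not pass in edgeR. It called 0 genes in the ratio for either genotype, with or without the clone as a block, while 450 and 637 genes had an unadjusted p below 0.05. The SE rests on the spread shared by all genotypes. The SD of log2 CPM of Rpl22 footprints was 1.38 in Rpl22-/-, against 0.12 in WT and 0.15 in both Rpl5+/- and Rpl11+/-.

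Rpl22l1 RNA overlapped WT in Rpl5+/- and lay below it in Rpl11+/-, a difference between mutants that was not tested. It was 609, 538 and 627 CPM in Rpl5+/-, with a change of -0.07 (interval -0.42 to 0.28). In Rpl11+/- it was 495, 527 and 336 CPM in clones 406, 414 and 22, all below WT. The change of -0.45 (SE 0.18, interval -0.81 to -0.10) had an adjusted p of 0.108 in edgeR and 0.0494 in DESeq2 (14.8% called), and it was -0.28 without clone 22. Footprints of Rpl22l1 in Rpl11+/- were 411, 367 and 316 CPM, a change of -0.16 (interval -0.43 to 0.11).

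Rps15 is a small subunit protein whose mutations are known from chronic lymphocytic leukaemia, and both of its mutants spread widely between clones. Markers of other cell types moved in them too. In Rps15 P131S RNA, 2 of 3 tested myeloid markers were called higher (median change 2.07), as was the T cell marker Cd3g (6.38), which was near 0 in all but 1 clone, and of 3 erythroid markers Gata1 was called lower (-0.53). The myeloid markers summed to 99.4 to 280 CPM there, against 17.2 to 46.3 in WT. In Rps15 H137Y RNA, 2 of 3 tested myeloid markers (median 2.91) and 2 of 3 erythroid markers (2.36) were called higher, and the erythroid markers summed to 108 to 344 CPM, against 77.7 to 99.6 in WT. The shares of all genes called higher were 23.7% and 21%, and the part of these cells' markers in the results for both mutants was not tested. Rpl22 RNA was 1100, 1081 and 1298 CPM in the Rps15 P131S clones 24, 63 and 20, all above WT, and 1084, 902 and 1231 CPM in the Rps15 H137Y clones 16, 6 and 2, overlapping WT. The change was 0.29 (SE 0.10, adjusted p 0.0261 in edgeR) in Rps15 P131S, where 47% of genes were called, and 0.19 (adjusted p 0.170) without clone 20. Leaving out WT clone 1, 2 or 3 also lost that call, at adjusted p values of 0.0501 to 0.0694 in edgeR. In Rps15 H137Y it was 0.18 (SE 0.10, adjusted p 0.182, 41% called). Rpl22l1 RNA ranged from 592 to 894 CPM in Rps15 P131S and from 370 to 684 CPM in Rps15 H137Y, and neither change passed (0.23 and -0.22, SE 0.18 each). Clone 20 had the highest RNA of both genes among all 24 clones, and clone 6 the lowest of both within Rps15 H137Y. Footprint and ratio changes of either gene in these mutants did not pass, with sizes of -0.29 to 0.34, while 16.7% and 11.7% of genes were called in footprints and 3.14% and 2.76% in the ratio (Rps15 P131S and Rps15 H137Y).

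The levels can be set in order over the 8 genotypes by their means. For Rpl22 RNA the order from low to high was Rpl22-/-, Rpl22+/-, WT, Rpl10 R98S, Rps15 H137Y, Rps15 P131S, Rpl5+/- and Rpl11+/-, and the ranges of neighbours overlapped except between Rpl22+/- and WT. For Rpl22 footprints it was Rpl22-/-, Rpl22+/-, Rpl10 R98S, Rpl5+/-, WT, Rpl11+/-, Rps15 P131S and Rps15 H137Y, with a gap only between Rpl22+/- (at most 1596 CPM) and Rpl10 R98S (at least 2000 CPM). For Rpl22l1 all neighbours overlapped at both levels, from Rpl11+/- at the low end (453 ± 102 CPM in RNA and 365 ± 47.7 in footprints) to Rpl22-/- in RNA (768 ± 50.8) and Rpl10 R98S in footprints (595 ± 36.9) at the high end (SD, n = 3). All comparisons against WT share the same 3 WT clones.

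**Figure D3:**
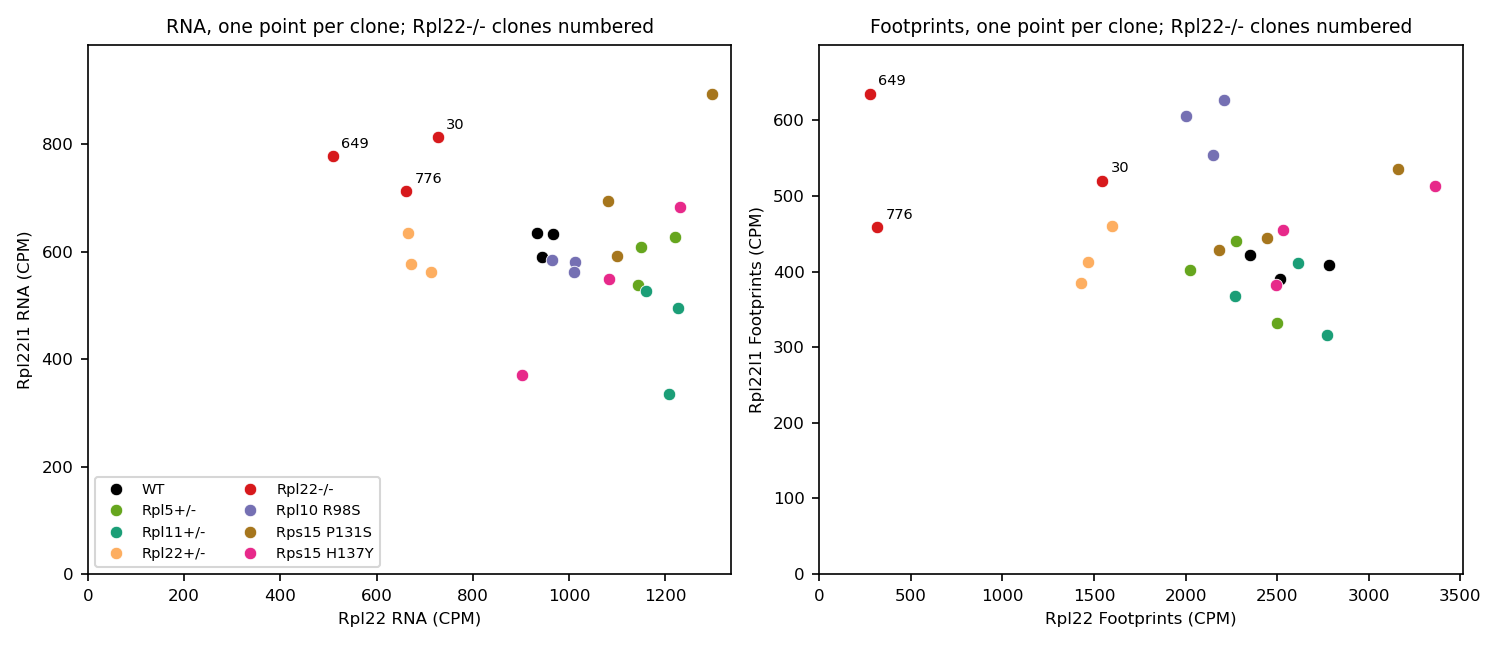
Rpl22l1 against Rpl22 in each clone, in CPM of RNA on the left and of footprints on the right, coloured by genotype with the 3 Rpl22-/- clones numbered. In footprints, clones 649 and 776 lie near the left edge at 274 and 317 CPM of Rpl22, clone 30 lies beside Rpl22+/-, and Rpl10 R98S lies above WT in Rpl22l1 at 555 to 626 CPM.

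Within genotypes no correlation of the pair passed its test. In the plot of one gene against the other, genotypes form clusters, so deviations of log2 CPM from the genotype mean were correlated over 24 clones. Pearson's r was 0.52 for Rpl22 RNA with Rpl22l1 RNA (rho 0.37), 0.0025 for Rpl22 footprints with Rpl22l1 footprints (rho 0.14) and 0.25 for Rpl22 footprints with Rpl22l1 RNA (rho 0.49). Permutation within genotypes, two-sided with 100000 resamples, gave p values of 0.0682, 0.995 and 0.0732 for r and of 0.165, 0.631 and 0.0524 for rho, and after adjustment over 3 relations the values for r were 0.110, 0.995 and 0.110. Without the 2 clones farthest from the median in Rpl22, r was 0.49, 0.47 and 0.43 (permutation p 0.0845, 0.128 and 0.0703), so the near 0 value in footprints rested on clones 30 and 649 of Rpl22-/-.

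Set among the other 78 cytosolic ribosomal protein genes, both members lay at the edge of the list in RNA of the Rpl22 genotypes. In Rpl22+/- and Rpl22-/- RNA, 0 and 1 of the 78 were called higher in edgeR and 0 lower, against 1.08% and 1.47% of all genes higher and 2.82% and 3.8% lower, with median changes of 0.05 and 0.13 beside 0.01 and 0.01 for all genes. Rpl22 had the lowest change of all in both genotypes at both levels. The called gene was Rpl19 (0.20, adjusted p 0.0371), which was not called without clone 30 (0.15, adjusted p 0.217) and is named after its value was seen. The RNA change of Rpl22l1 was above that of all 78 in Rpl22-/-, where the others ranged from 0.00 to 0.24, and below all 78 in Rpl22+/-, where they ranged from -0.04 to 0.11. These changes of Rpl22l1, 0.31 and -0.07 (SE 0.18 each), were not called in edgeR, so its place in the list is uncertain.

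In the other mutants many ribosomal protein messages were called higher, and Rpl22 lay among them while Rpl22l1 mostly lay below. Called higher in edgeR were 37 of the 78 in Rpl5+/- (median 0.28, 0.624% of all genes), 64 in Rpl11+/- (0.32, 5.73%), 29 in Rpl10 R98S (0.17, 6.82%), 67 in Rps15 P131S (0.29, 23.7%) and 63 in Rps15 H137Y (0.27, 21%). The lowest of the 78 was the edited gene itself in Rpl5+/- (-0.57), Rpl11+/- (-0.64), Rpl10 R98S (-0.10) and Rps15 H137Y (-0.30). Beside the edited genes, the largest called changes without overlap were Rpl36a in Rpl5+/- (0.44), Rps12 in Rpl11+/- (0.51), Rpl10a in Rpl10 R98S (0.62) and the stalk protein gene Rplp0 in Rps15 P131S and Rps15 H137Y (0.60 and 0.65). The change of Rpl22 had between 7 and 47 of the 78 below it in these 5 genotypes. The change of Rpl22l1 was below 77 of the 78 in Rpl5+/-, Rpl11+/- and Rps15 H137Y, below all 78 in Rpl10 R98S, and had 20 below it in Rps15 P131S. Scaled to the summed counts of these 78 genes, the median of all genes in RNA shifted by -0.31 in Rpl11+/- and Rps15 P131S, -0.29 in Rps15 H137Y, -0.26 in Rpl5+/-, -0.17 in Rpl10 R98S and -0.12 in Rpl22-/-. Under that scaling the change of Rpl22 RNA was 0.05 in Rpl5+/- and 0.02 in Rpl11+/- and turned to -0.01 in Rps15 P131S, -0.13 in Rps15 H137Y and -0.10 in Rpl10 R98S, none of them called. The change of Rpl22l1 RNA was then -0.76 in Rpl11+/- and -0.53 in Rps15 H137Y, both called (adjusted p 0.0011 and 0.0102 in edgeR), and turned to -0.08 in Rps15 P131S. The loss of Rpl22 RNA in Rpl22-/- was -0.72 under it.

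**Figure D4:**
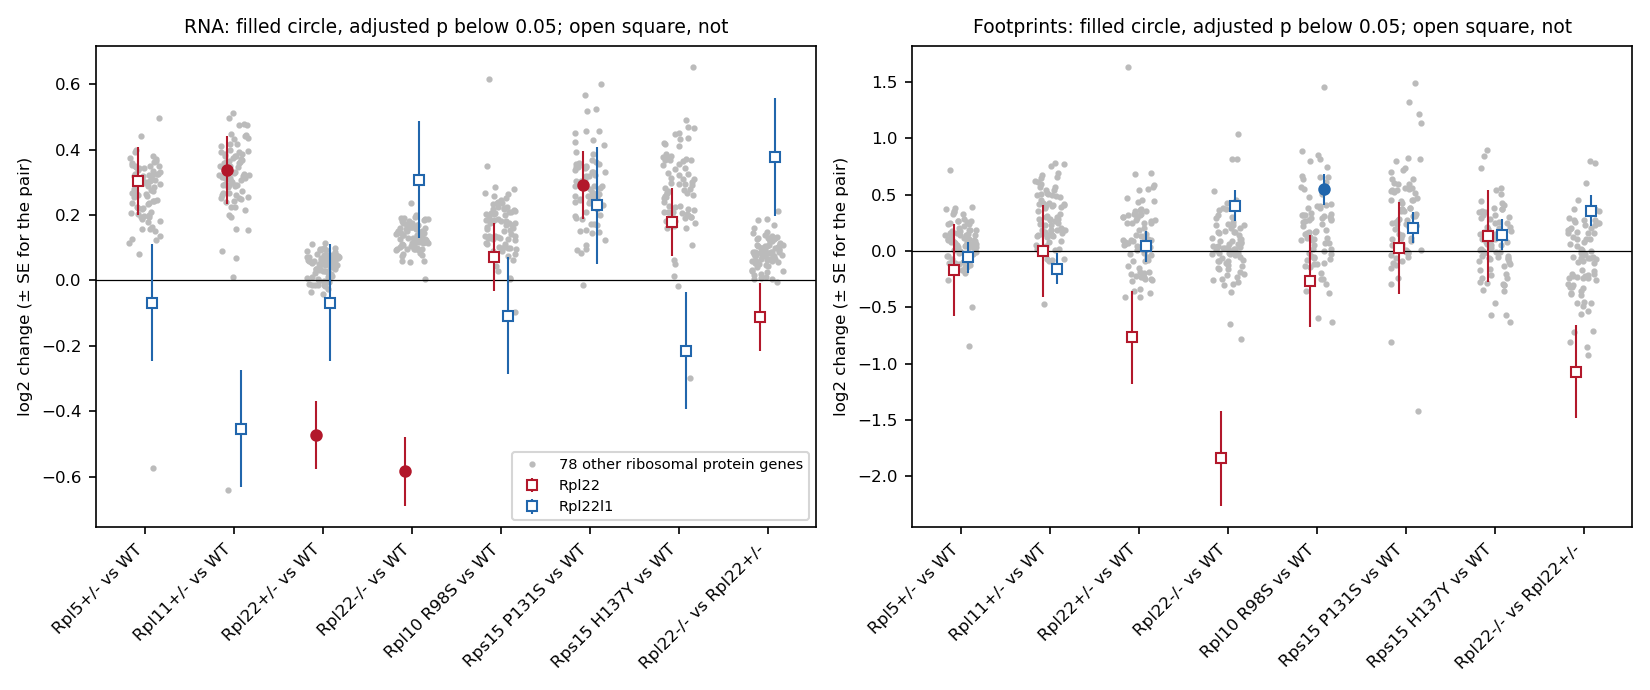
Log2 change in RNA (left) and footprints (right) in 8 comparisons, with the 78 other ribosomal protein genes as grey points, Rpl22 in red and Rpl22l1 in blue with their SE. Filled circles passed edgeR at an adjusted p of 0.05 and open squares did not. Rpl22 is the lowest point in Rpl22+/- and Rpl22-/-, and Rpl22l1 RNA lies below nearly all others in Rpl5+/- and Rpl11+/-, above all in Rpl22-/-.

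Footprints gave a less uniform picture for the same list. The plot of changes shows that the 78 genes spread from -0.78 to 1.04 in Rpl22-/- and from -0.41 to 1.63 in Rpl22+/-, and none of them was called there. The highest point in Rpl22+/- was Rpl10, at a low level of footprints. It had 3.53 ± 0.399 CPM in WT and 10.9 ± 4.12 in Rpl22+/- (SD, n = 3), beside 1942 CPM of RNA in WT. The change of Rpl22l1 footprints had 31 of the 78 below it in Rpl22+/-, 72 in Rpl22-/- and 64 in Rpl10 R98S, where 8 of the 78 were called higher (0.814% of all genes).

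Other ribosomal protein paralogs were followed as a list of 7: Rpl3l, Rpl7l1, Rpl10l, Rpl36al, Rpl39l, Rps4l and Rps27l. Of these, 4 passed the filter in RNA and 5 in footprints, and none was called in Rpl22+/- or Rpl22-/-, where 3.9% and 5.27% of all genes were called in RNA, with median RNA changes of 0.04 and 0.16. Rps27l, a paralog of Rps27 known as a p53 target, had footprints of 173 ± 16.7 CPM in WT and 264 ± 11.7 CPM in Rpl22-/- (SD, n = 3). Its groups did not overlap, but its change of 0.61 was not called (SE 0.21, adjusted p 0.461 in edgeR). The share of all genes without overlap in this comparison was not counted, so its place apart from WT is descriptive. Rpl36al had 338 ± 13.0 CPM of RNA in WT and 375 ± 20.7 in Rpl22-/-, and Rpl7l1 had 172 ± 3.00 and 162 ± 3.43. The parents Rpl3, Rpl7, Rpl10, Rpl36a, Rpl39, Rps4x and Rps27 were not called either, with RNA changes of 0.06 to 0.19 in Rpl22-/-. Of the 4 tested in RNA, Rpl36al (0.26) and Rps27l (0.41) were called higher in Rpl10 R98S, Rpl3l (1.71) in Rpl11+/-, Rpl3l (2.18), Rpl36al (0.42) and Rps27l (0.40) in Rps15 P131S, and Rpl3l (1.60) in Rps15 H137Y. The shares of all genes called higher in these genotypes were 6.82%, 5.73%, 23.7% and 21%, in that order.

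Genes that earlier work ties to Rpl22 or its paralog were listed too: Smad1, Smad2, Lin28b, Mdm4, Mdm2, Trp53, Cdkn1a, Alox12 and Hspa5. Of the 9, 6 passed the filter in RNA, and Smad1, Lin28b and Alox12 did not. Hspa5, the endoplasmic reticulum chaperone BiP, was the only one of the 6 called in RNA in the Rpl22 genotypes, where 1.08% (Rpl22+/-) and 1.47% (Rpl22-/-) of all genes were called higher. Its RNA spanned 488 to 587 CPM in WT clones, 646 to 791 with 1 allele of Rpl22 and 730 to 797 with none, without overlap with WT. Its changes were 0.46 (SE 0.08, adjusted p 0.00265) and 0.53 (SE 0.08, adjusted p 0.000587) in edgeR, and 0.56 (adjusted p 0.0016) in Rpl22-/- without clone 30. In footprints 7 of the 9 were tested and 0 were called in either Rpl22 genotype, where 0.253% and 0.105% of all genes were called. Without clone 30 the footprint changes of Hspa5 were 0.31 in Rpl22+/- and 0.48 in Rpl22-/- (adjusted p 0.229 and 0.214 in edgeR). Hspa5 RNA was also called higher in Rpl11+/- (0.41), Rpl10 R98S (0.37), Rps15 P131S (0.53) and Rps15 H137Y (0.52), among 5.73%, 6.82%, 23.7% and 21% of all genes, and in Rpl5+/- its change was 0.18, which was not called. The p53 gene Trp53 and its target Cdkn1a had RNA changes of 0.11 and 0.08 in Rpl22-/-, and Mdm2, which marks p53 for decay, had -0.03, none of them called.

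Neighbouring genes and copies of Rpl22 were checked for shared signal. Of the 3 protein-coding genes on each side, 4 of 6 around Rpl22 and 1 of 6 around Rpl22l1 passed the filter in RNA. None of these 5 was called in Rpl22+/- or Rpl22-/-, where 3.9% and 5.27% of all genes were, so a count of 0 among so few is near that background. The tested neighbour of Rpl22l1 was Mecom, a transcription factor gene on the same chromosome, whose RNA was 469 ± 12.3 CPM in WT, against 376 ± 51.3 with 1 Rpl22 allele and 437 ± 12.4 with none (SD, n = 3). The pseudogene row Rpl22-ps1 had at most 9.17 counts in an RNA library and at most 0.253% of the Rpl22 footprint CPM in any clone, and the row Gm13196, which RefSeq also calls Rpl22p, at most 0.131%. Adding the counts of Rpl22-ps1 to Rpl22 gave a footprint change of -1.84 in Rpl22-/- against WT, as without it. How reads shared by such copies were assigned is not given in the sources used here.

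The genes most like each member were those with the highest Pearson r of log2 CPM over 24 libraries of an assay, among genes with a mean of at least 10 CPM. These values describe the libraries, which share genotypes and a WT group, and carry no test. For Rpl22 RNA they were Arl5a (0.83), Uspl1 (0.83) and Dph2 (0.81) of 8488 genes, and for Rpl22l1 RNA Gtf2a2 (0.87), Uqcrb (0.80) and Kctd5 (0.79). In footprints of 7771 genes they were Enoph1 (0.71), Ppp1cc (0.70) and Rbm3-ps (0.69) for Rpl22, and Nit2 (0.81), Pnpt1 (0.78) and Fubp1 (0.76) for Rpl22l1. No ribosomal protein gene was among them, and the members had r of -0.27 with each other in RNA and -0.32 in footprints.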

How the data were processed

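RNA and footprints of 24 clones (48 libraries, 8 genotypes of 3 clones) were taken from 1 table of estimated counts per gene deposited by the authors. The submitters' processing notes name STAR 2.6.1d, Salmon 1.4.0, DESeq2 1.30 and GRCm38, without their roles. The counted feature, the annotation and the treatment of reads that match several genes are not given in the sources used here. Labels give each library's genotype and clone, and footprints were cut at 28 to 30 nucleotides. Replicates are clones, so p-values measure the spread between clones. The share of all genes whose clones separate between groups was not counted, so statements of no overlap are descriptive.

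Estimated counts, as deposited, were rounded and tested with edgeR 4.0.16 in R 4.3.3 (quasi-likelihood fit, TMM scaling, genes kept by a minimum count of 10). The 24 libraries of an assay entered 1 fit, and the ratio of footprints to RNA was the interaction of assay and genotype over 48 libraries. Benjamini-Hochberg adjustment ran over all genes tested in a comparison, with a threshold of 0.05. CPM used the same scaling. Alternatives were DESeq2 1.42.0, limma 3.58.1 (voom), RLE scaling, no filter, scaling to 78 ribosomal protein genes, adding pseudogene rows, fitting only the groups compared, leaving out each clone, and the clone as a block. RNA and footprints of the same clone come from 1 lysate per the labels, and deviations of the same clone correlated at 0.150 to 0.548 over 12074 genes in 24 clones, so the numbers pair the libraries. Alternatives without clone 30 of Rpl22-/- were chosen after seeing the data. Members and gene lists were chosen with earlier results of these data known. Named were the 2 members and their pseudogenes, genes of the lists of paralogs, linked genes and neighbours, ribosomal protein genes called without overlap at a log2 change of at least 0.3 (at most 5 a comparison), and the 3 genes most alike to each member. Gene lengths were not used here, so the shares, sums and differences that set the pair side by side are in counts or CPM and not per length. The tests were tried on simulated data first. One marker gene of the lists is not reported here.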

Additional observations from a re-analysis of the deposited data

How the results depend on the processing

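Without clone 30 of Rpl22-/- the log2 change of Rpl22 footprints was -0.77 in Rpl22+/-, -3.11 in Rpl22-/- and -2.34 between them, and that of the ratio -2.41 and -2.11, all called in edgeR. Clone 30 was left out for its Rpl22 footprints, so calls of Rpl22 footprints and ratio without it do not serve as tests. The change of Rpl22 footprints in Rpl11+/- turned to -0.005717, and that of the Rpl22l1 ratio between Rpl22-/- and Rpl22+/- to 0.061. The correlation of Rpl22l1 footprints with intact alleles was -0.69 and no longer passed. With the replicate block (the clone as a block, given the pairing of RNA and footprints), the Rpl22l1 ratio in Rpl5+/- turned to -0.002807 and in Rpl10 R98S was called at 0.64. With the block and without clone 30, the Rpl22 ratio was -2.40 against WT and -2.10 against Rpl22+/-, both called, and the Rpl22l1 ratio between these genotypes was 0.045.

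Scaled to the ribosomal protein genes, Rpl22 RNA turned to -0.13 in Rps15 H137Y, -0.098 in Rpl10 R98S and -0.011 in Rps15 P131S, where Rpl22l1 RNA turned to -0.075. Footprints of Rpl22 turned to -0.23 in Rpl11+/- and -0.24 in Rps15 P131S, and those of Rpl22l1 to -0.013 in Rpl22+/- and -0.061 in Rps15 P131S. Fitted on 2 groups, Rpl22l1 RNA in Rpl22-/- was called at 0.30. Footprints of Rpl22 in Rpl22-/- were called by DESeq2 (-1.85) and limma voom (-2.30). In limma voom, Rpl22 footprints in Rpl11+/- were -0.000266 and the Rpl22l1 ratio in Rpl5+/- -0.002363. With no filter, Rpl22 footprints were -0.026 in Rpl11+/- and -0.004294 in Rps15 P131S, and the Rpl22l1 ratio between Rpl22-/- and Rpl22+/- was 0.003845.

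Leaving out 1 clone at a time, Rpl22 RNA ranged from -0.50 to -0.45 in Rpl22+/- and from -0.23 to 0.023 between Rpl22-/- and Rpl22+/-. Rpl22 footprints ranged from -0.82 to -0.70 in Rpl22+/-, -3.11 to -1.46 in Rpl22-/-, -2.34 to -0.69 between them, -0.071 to 0.073 in Rpl11+/-, -0.017 to 0.22 in Rps15 H137Y and -0.14 to 0.17 in Rps15 P131S. The Rpl22 ratio ranged from -2.41 to -0.89 in Rpl22-/-, -2.11 to -0.59 against Rpl22+/- and -0.080 to 0.044 in Rps15 H137Y. Rpl22l1 footprints ranged from -0.15 to 0.050 in Rpl5+/- and -0.031 to 0.10 in Rpl22+/-. The Rpl22l1 ratio ranged from -0.074 to 0.16 in Rpl5+/-, -0.080 to 0.045 in Rps15 P131S, -0.039 to 0.17 in Rpl22-/- and -0.15 to 0.061 against Rpl22+/-. With 3 clones a group, the spread between clones and not the depth limits these comparisons.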
